A study of Homo sapiens with 18 samples.

Results

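The cholesterol and fatty acid synthesis genes followed here are 32 genes of the SREBP pathway, taken by function as the rows of both count tables whose Ensembl identifier carries their GENCODE GRCh38 symbol. They make up 32 of the 61541 genes counted, and all 32 passed the filter on low counts in both tables, in which 17377 genes (3 h and 24 h) and 17775 genes (3 days and 12 days) were tested. RNA came from A549, an established human lung adenocarcinoma line that forms epithelial sheets. Cells received 5 mM sodium propionate (SP), the salt of a short-chain fatty acid made by gut bacteria, for 3 h, 24 h, 3 days or 12 days, and untreated cells were collected at 24 h and at 3 days, with 3 libraries in each of the 6 groups. The line carried no genetic change in any group. SP at 3 h and 24 h was compared with the 24 h control, and SP at 3 days and 12 days with the 3-day control. Controls of 3 h and of 12 days were not analysed here, so for those times the effect of SP cannot be told apart from that of time in culture.

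Cholesterol is built from acetyl-CoA through mevalonate and squalene, and fatty acids are built from acetyl-CoA through malonyl-CoA. Both routes are switched on by the sterol regulatory element binding proteins made from SREBF1 and SREBF2, which are held in the endoplasmic reticulum by SCAP and the INSIG proteins while sterol is plentiful and are cut free when it is scarce. In lung epithelium the same genes supply the lipid of surfactant and of membranes. SREBF1 is itself a target of the oxysterol receptors LXR, which also drive the sterol efflux pumps ABCA1 and ABCG1.

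The members fell into 4 groups by role. The acetoacetyl-CoA and mevalonate steps held 7 genes, the squalene and sterol steps 11, the SREBP system with the sterol carrier STARD4 6, and fatty acid synthesis, elongation and desaturation 8. Levels were compared between genes as RPKM, reads scaled for exon length and library size. SCD, the desaturase that makes oleic acid, was the most abundant at 524 ± 9.43 RPKM in the 3-day control and 238 ± 43.0 RPKM in the 24 h control (SD, n = 3). The least abundant, SC5D, a sterol desaturase, was at 2.19 ± 0.0908 RPKM in the 3-day control.

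Promoter windows from RefSeq (GRCh38.p14), reaching 250 bases before and 50 bases after a start site, were matched by symbol for 28 of the 32 members, and for 8 of them more than 1 window was listed. ACAT2, FDFT1, SQLE and FASN had no window. Each window was searched on both strands for a sterol response element core (TCACNCCA), an E-box form that SREBP proteins also bind (TCACGTGA), the NF-Y box (CCAAT) and the SP1 box (GGGCGG). The core was found in 3 of 28 members (10.7%) and in 4.80% of 27305 genes with a window, and the E-box form in 1 of 28 (3.57%) and in 1.18% of all genes. NF-Y boxes stood in 20 of 28 members (71.4%) against 39.7% of all genes, and SP1 boxes in 27 of 28 (96.4%) against 48.3%. A gene counted where any of its windows held the motif. The 27305 genes were not limited to those expressed in A549, whereas all members were, and no difference in these shares was tested. The 4 members with a core or the E-box form are shown over the 250 bases before the start, because they differ in how their RNA moved under SP. The windows are MVK at chr12:109573544-109573793, MSMO1 at chr4:165327419-165327668, SREBF2 at chr22:41832855-41833104 and INSIG1 at chr7:155297628-155297877, all on the + strand, with the core or E-box form in capitals.
MVK: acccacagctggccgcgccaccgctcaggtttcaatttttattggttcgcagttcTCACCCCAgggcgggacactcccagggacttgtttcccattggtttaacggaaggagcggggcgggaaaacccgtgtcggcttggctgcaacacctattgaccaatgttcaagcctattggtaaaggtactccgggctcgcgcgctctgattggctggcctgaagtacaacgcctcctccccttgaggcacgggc
MSMO1: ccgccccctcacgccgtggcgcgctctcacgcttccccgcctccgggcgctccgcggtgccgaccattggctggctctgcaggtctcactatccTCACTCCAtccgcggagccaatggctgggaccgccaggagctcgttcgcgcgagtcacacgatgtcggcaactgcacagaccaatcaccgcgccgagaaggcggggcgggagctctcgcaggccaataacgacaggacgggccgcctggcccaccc
SREBF2: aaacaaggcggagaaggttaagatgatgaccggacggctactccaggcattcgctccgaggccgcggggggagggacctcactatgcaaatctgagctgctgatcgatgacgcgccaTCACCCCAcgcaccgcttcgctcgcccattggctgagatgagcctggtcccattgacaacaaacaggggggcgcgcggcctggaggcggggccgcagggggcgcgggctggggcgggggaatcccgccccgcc
INSIG1: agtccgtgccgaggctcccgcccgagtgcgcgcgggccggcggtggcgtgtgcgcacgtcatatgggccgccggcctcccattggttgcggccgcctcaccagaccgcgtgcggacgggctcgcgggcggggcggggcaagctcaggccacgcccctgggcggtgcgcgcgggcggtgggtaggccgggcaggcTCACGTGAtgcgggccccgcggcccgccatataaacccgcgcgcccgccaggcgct
The capitals lay at -195 to -188 in MVK, at -156 to -149 in MSMO1, at -133 to -126 in SREBF2 and at -56 to -49 in INSIG1, counted from the start site, and no NF-Y or SP1 box overlapped them. A match in letters is a description of the window and does not show binding.

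Library totals ran from 15425281 to 21992046 counted reads in the 3-day and 12-day table and from 14187401 to 43765330 in the 3 h and 24 h table. The members together took 0.875% to 0.915% of reads in the 3-day controls, 1.29% to 1.34% in SP at 3 days and 1.12% to 1.35% in SP at 12 days. In the other table they took 0.568% to 0.729% in the 24 h controls, 0.554% to 0.792% in SP at 3 h and 0.840% to 1.00% in SP at 24 h. Replicate 3 of SP at 12 days stood apart, being the lowest of its group for 29 of the 32 members, and results that rest on it are given with and without it. Because it was singled out by these member values, leaving it out raises the 12-day level of those members by construction. Replicate 3 of SP at 24 h was likewise the lowest of its group for 26 of 32, and the 24 h controls spread widely for several members. Keratins KRT8 and KRT18, EPCAM and CDH1 were expressed in every library. Of 4 markers of other cells, on the scale of counts corrected for library size (CPM), the leukocyte gene PTPRC reached at most 0.10, the muscle gene DES 0.47 and the endothelial gene PECAM1 0.67. The collagen gene COL1A1 was at 5.61 to 21.4 CPM in the 24 h controls and 13.1 to 13.5 CPM in the 3-day controls. Summed CPM of the 4 epithelial markers lay at 6558 to 8043 in the 24 h controls, 6305 to 8075 after 3 h and 11319 to 12904 after 24 h of SP, and at 5750 to 7408 in the 3-day controls, 10362 to 11292 after 3 days and 9751 to 13459 after 12 days. The sum of the other-cell markers, nearly all COL1A1, lay at 5.77 to 21.5, 17.97 to 37.8 and 61.5 to 89.7, and at 13.7 to 14.1, 56.8 to 67.4 and 29.0 to 51.8, in the same order. Their part in the results was not tested. In RNA from whole cultures, fewer cells of a kind and less RNA per cell cannot be told apart.

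At 3 h of SP few members changed. Of the 32 members 2 rose (6.25%, where 7.39% of all tested genes were called higher) and 0 fell (4.11% of all tested genes were called lower). The 2 were TM7SF2, a sterol reductase of the late cholesterol steps, and INSIG2, an anchor that keeps SREBP proteins in the endoplasmic reticulum. The median log2 fold change was 0.00 over the members and 0.00 over all tested genes. Differences throughout are log2 fold changes from edgeR's quasi-likelihood test with Benjamini-Hochberg adjustment over all tested genes, called at an adjusted p under 0.05.

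TM7SF2 read 11.7, 14.4 and 11.6 CPM in replicates 1 to 3 of the 24 h control and 17.9, 26.2 and 18.5 CPM in SP at 3 h. All 3 treated libraries lay above all controls, with replicate 2 the highest of its group in both. The log2 fold change was 0.74 ± 0.18 (SE, adjusted p = 0.0268). INSIG2 was at 17.7, 19.2 and 12.2 CPM in the controls and 25.8, 24.6 and 30.6 CPM after 3 h, again with no overlap, and changed by 0.72 ± 0.18 (adjusted p = 0.0311). The TM7SF2 call was lost without control replicate 1 or 3, SP 3 h replicate 2 or SP 24 h replicate 3 (adjusted p of 0.0505 to 0.101), and the INSIG2 call without control replicate 1, any SP 3 h library or SP 24 h replicate 2 or 3 (0.0516 to 0.0891). In a fit of these 2 groups alone the adjusted p was 0.0804 and 0.0803. SREBF1, the transcription factor gene for fatty acid synthesis, read 162, 302 and 376 CPM in the controls and 382, 606 and 216 CPM after 3 h. These groups overlapped, replicate 3 of SP at 3 h lying below 2 of the controls, and the difference of 0.52 ± 0.38 was not called (adjusted p = 0.461). FASN, the fatty acid synthase, overlapped too, at 297, 524 and 959 CPM in the controls and 788, 905 and 298 CPM after 3 h (0.16 ± 0.46, adjusted p = 0.878). HMGCS1 (0.17 ± 0.25), INSIG1 (-0.12 ± 0.20), SREBF2 (-0.06 ± 0.20) and SCD (-0.17 ± 0.22) did not pass either, and the other 24 members lay between -0.33 (FADS2) and 0.31 (AACS). Beside the 0 members called lower, FADS1 and FADS2 had an unadjusted p under 0.05 in that direction, and DESeq2 called FADS1 (-0.33). At a stricter rule of an adjusted p under 0.0001 and at least 2-fold, 0 members passed in either direction, as did 0.00% of all tested genes higher and 0.00% lower, and DESeq2 gave 0 as well.

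At 24 h of SP, SREBF1 rose 3.44-fold and TM7SF2 3.33-fold, with SCD and SREBF2, while ACAT2, the cytosolic thiolase that opens the mevalonate route, was at 0.48 of its control level and MVK, SQLE, NSDHL and HSD17B7 of the mevalonate and sterol steps also fell. Of the 32 members 4 rose (12.5%, against 16.8% of all tested genes) and 5 fell (15.6%, against 12.0%), so the shares themselves lay near those of all genes. By role, 0 of 7 mevalonate genes rose and 2 fell, 1 of 11 sterol genes rose and 3 fell, 2 of 6 genes of the SREBP system rose and 1 of 8 fatty acid genes rose. The median log2 fold change was -0.45 for the mevalonate steps, -0.22 for the sterol steps, 0.29 for the SREBP system and 0.25 for fatty acid synthesis, where all tested genes had -0.01, and no test of a difference between roles was made. The 24 h controls differed among themselves by role, replicate 1 being the highest of its group for 7 of 7 mevalonate and 8 of 11 sterol genes and the lowest for 7 of 8 fatty acid genes, and the part of this in the medians was not tested.

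SREBF1 reached 855, 1107 and 932 CPM at 24 h from the control values above. Every treated library lay above the highest control, and the controls themselves differed more than 2-fold. The change was 1.78 ± 0.39 (adjusted p = 0.00991), and with no filter on low counts the calls of SREBF1, SCD, MVK and SQLE were lost. SREBF2, which serves mainly the sterol genes, went from 101, 139 and 156 CPM to 198, 228 and 190 CPM without overlap (0.64 ± 0.21, adjusted p = 0.0431). Deviations from group means correlated at 0.50, 0.17 and 0.50 between same-numbered libraries of the control and of SP at 24 h. Differently numbered ones gave -0.55 to 0.17, and control replicate 1 with SP 3 h replicate 3 gave 0.58. The numbers therefore do not show a clear pairing. With the replicate number as a block over all 9 libraries the SREBF2 call was lost (adjusted p = 0.0606). That fit also pairs SP at 3 h, whose same-numbered libraries did not deviate with the controls (correlations of -0.59 to -0.03). It therefore does not isolate any pairing at 24 h. SCD rose from 991, 1414 and 1339 CPM to 1970, 2457 and 1768 CPM, with no overlap (0.73 ± 0.22, adjusted p = 0.0325). TM7SF2 reached 37.5, 47.5 and 40.5 CPM, far above its controls, at 1.74 ± 0.18 (adjusted p = 2e-04).

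Among the genes that fell, ACAT2 went from 87.9, 67.2 and 65.7 CPM to 37.7, 34.2 and 34.5 CPM. The treated libraries were close together and all below the controls (-1.05 ± 0.14, adjusted p = 0.000633). HSD17B7, a ketoreductase of the sterol steps, went from 14.6, 13.2 and 10.7 CPM to 8.70, 8.10 and 7.97 CPM, likewise without overlap (-0.63 ± 0.14, adjusted p = 0.00895). NSDHL, a sterol dehydrogenase, fell by 0.47 on the log2 scale, MVK, the mevalonate kinase, by 0.45, and SQLE, the squalene epoxidase, by 0.37 (SE 0.13, 0.12 and 0.11). Of the 9 calls, SREBF2 was lost without control replicate 1 or 2, SP 3 h replicate 1 or any SP 24 h library (adjusted p of 0.066 to 0.156), SCD without control replicate 1, SP 3 h replicate 1 or SP 24 h replicate 1 or 2 (0.0503 to 0.133), MVK without control replicate 1 or 2 or any SP 24 h library (0.0507 to 0.0992), SQLE without control replicate 1 or 2 or SP 24 h replicate 2 or 3 (0.0541 to 0.132) and NSDHL without control replicate 1 or SP 24 h replicate 2 or 3 (0.0619 to 0.0932). Without control replicate 3, on the other hand, 7 members were higher and 9 lower, where 19.7% and 17.3% of all tested genes were called. FASN (1.84), SCAP (0.53), which carries SREBP proteins to the Golgi, and ACACA (0.51) then joined those higher and IDI1 (-0.91), HMGCS1 (-0.89), STARD4 (-0.86) and SC5D (-0.70) those lower. Control replicate 3 was the lowest control for 5 of 7 mevalonate and 6 of 11 sterol genes and the highest for 5 of 8 fatty acid genes. Leaving it out enlarges a fall of the former and a rise of the latter by construction, so these added calls are a description. HMGCS1, which makes HMG-CoA, read 282, 192 and 146 CPM in the controls and 169, 113 and 102 CPM at 24 h, replicate 1 being the highest and replicate 3 the lowest in both groups. The groups overlapped and the difference of -0.69 ± 0.25 was not called (adjusted p = 0.0697). IDI1, the isopentenyl diphosphate isomerase, had the same order of replicates in both groups and -0.68 ± 0.24 (adjusted p = 0.0643). FASN reached 1536, 1558 and 1342 CPM, above all controls, but 1.32 ± 0.46 was not called (adjusted p = 0.0621). Its values ranged widely in the controls (297 to 959 CPM) and in SP at 3 h (298 to 905 CPM). Both groups enter the shared estimate of spread. In a fit of these 2 groups with the replicate block, chosen after seeing the data, HMGCS1 (-0.68, adjusted p = 0.00182), IDI1 (-0.67, adjusted p = 0.00338) and FASN (1.47, adjusted p = 0.0271) were called. That block rests on replicate numbers that did not clearly pair these libraries. The other INSIG gene, INSIG1, did not pass at 115, 107 and 85.2 CPM in the controls and 144, 109 and 86.9 CPM at 24 h (0.14 ± 0.20). The remaining members that were not called lay between -0.52 (STARD4) and 0.38 (ACACA). At the stricter rule 0 members passed in either direction, beside 0.622% of all tested genes higher and 0.0633% lower. By DESeq2 SREBF1, TM7SF2 and ACAT2 passed it, and at an unadjusted p under 0.05 without a fold limit 6 members were higher and 8 lower.

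The change at 24 h also ran with base composition. Slopes of library levels on exon GC content were -0.36, -0.23 and 0.13 log2 units per 10 percentage points in the controls and 0.09, 0.23 and 0.31 in SP at 24 h. Over the 32 members, which share these libraries, the log2 fold change correlated with GC content at a Pearson r of 0.61 and a Spearman rho of 0.59. With offsets for GC content and length, the rise of SREBF1, TM7SF2 and SCD and the fall of ACAT2, MVK and NSDHL were still called. SQLE (-0.11), HSD17B7 (-0.30) and SREBF2 (0.32) were then not called, and INSIG2 (0.69), ACACA (0.33), which makes malonyl-CoA, and the elongase ELOVL6 (0.50) were called higher.

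**Figure D1:**
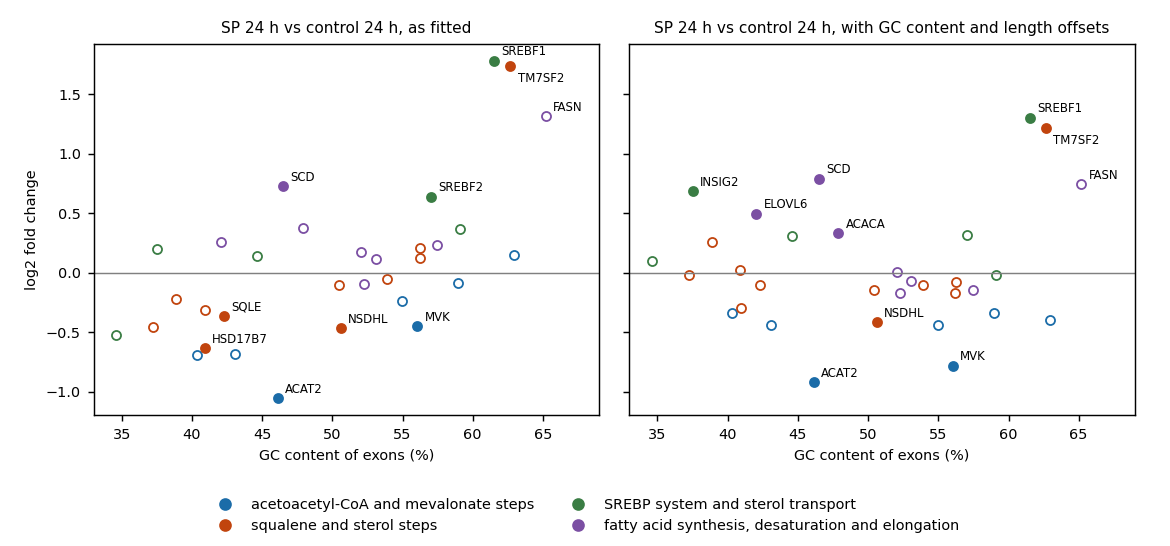
Log2 fold change of the 32 members after 24 h of SP (vertical axis) against the GC content of their exons in percent (horizontal axis), as fitted (left) and with GC content and length offsets (right). Filled points were called at an adjusted p under 0.05 and colours mark the 4 roles; SREBF1 lay at 1.78 in the left panel, ACAT2 at -1.05, and SQLE at -0.37 on the left and -0.11 on the right.

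Counts in the lists around the pathway at 24 h stand beside 16.8% of all tested genes called higher and 12.0% called lower. No list was tested against these shares. Of 7 LXR factors and efflux genes 4 rose and 0 fell. Among those that rose were ABCG1 (2.11 ± 0.39), ABCA1 (1.51 ± 0.18), the lysophospholipid acyltransferase LPCAT3 (0.86 ± 0.17) and the ubiquitin ligase MYLIP (0.66 ± 0.17). Of 24 further genes of fatty acid and glycerolipid synthesis 8 rose, led by the desaturase-like FADS3 (1.54 ± 0.12), DGAT2 of triglyceride synthesis (1.04 ± 0.20), the second stearoyl-CoA desaturase SCD5 (1.02 ± 0.19) and AGPAT2 (0.80 ± 0.08), and 1 fell, the NADPH-making malic enzyme ME1 (-0.52 ± 0.12). In sterol uptake, storage and traffic 3 of the 10 tested genes rose, SCARB1 (0.95 ± 0.16), LIPA (0.62 ± 0.10) and SOAT1 (0.44 ± 0.14), and 0 fell. The isoprenoid branch had 0 of 7 genes higher and 3 lower, FNTB (-0.53 ± 0.11), PDSS1 (-0.53 ± 0.18) and PDSS2 (-0.36 ± 0.12). In the SREBP processing and degradation machinery 1 of 8 rose, ERLIN2 (0.27 ± 0.09), and 2 fell, TMEM97 (-0.50 ± 0.11) and SPRING1 (-0.36 ± 0.10). At 3 h ABCA1 (0.82 ± 0.18) and FADS3 (0.61 ± 0.12) were the only genes of these lists called higher. NR1H2, an LXR gene (-0.55 ± 0.09), and MID1IP1 (-0.62 ± 0.11) were the only ones called lower. Of all tested genes 7.39% were called higher and 4.11% lower at 3 h.

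After 3 days of SP, 7 of 8 fatty acid genes, 4 of 6 genes of the SREBP system and 6 of 11 sterol genes rose. FASN was 2.62-fold higher, INSIG1 1.96-fold, INSIG2 1.87-fold and FDFT1 1.85-fold, SREBF1 changed by 1.00 on the log2 scale, while ACAT2 was at 0.52 of its control. Of the 32 members 18 rose (56.25%, where 25.2% of all tested genes were called higher) and 1 fell (3.12%, where 23.3% were called lower). The median log2 fold change was 0.34 over the members and -0.02 over all tested genes. At the stricter rule FASN alone passed, with 6.58% of all tested genes, and 0 members passed it downwards, where 1.86% of all tested genes did, with 0 by DESeq2 and 2 members lower at an unadjusted p under 0.05.

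**Figure D2:**
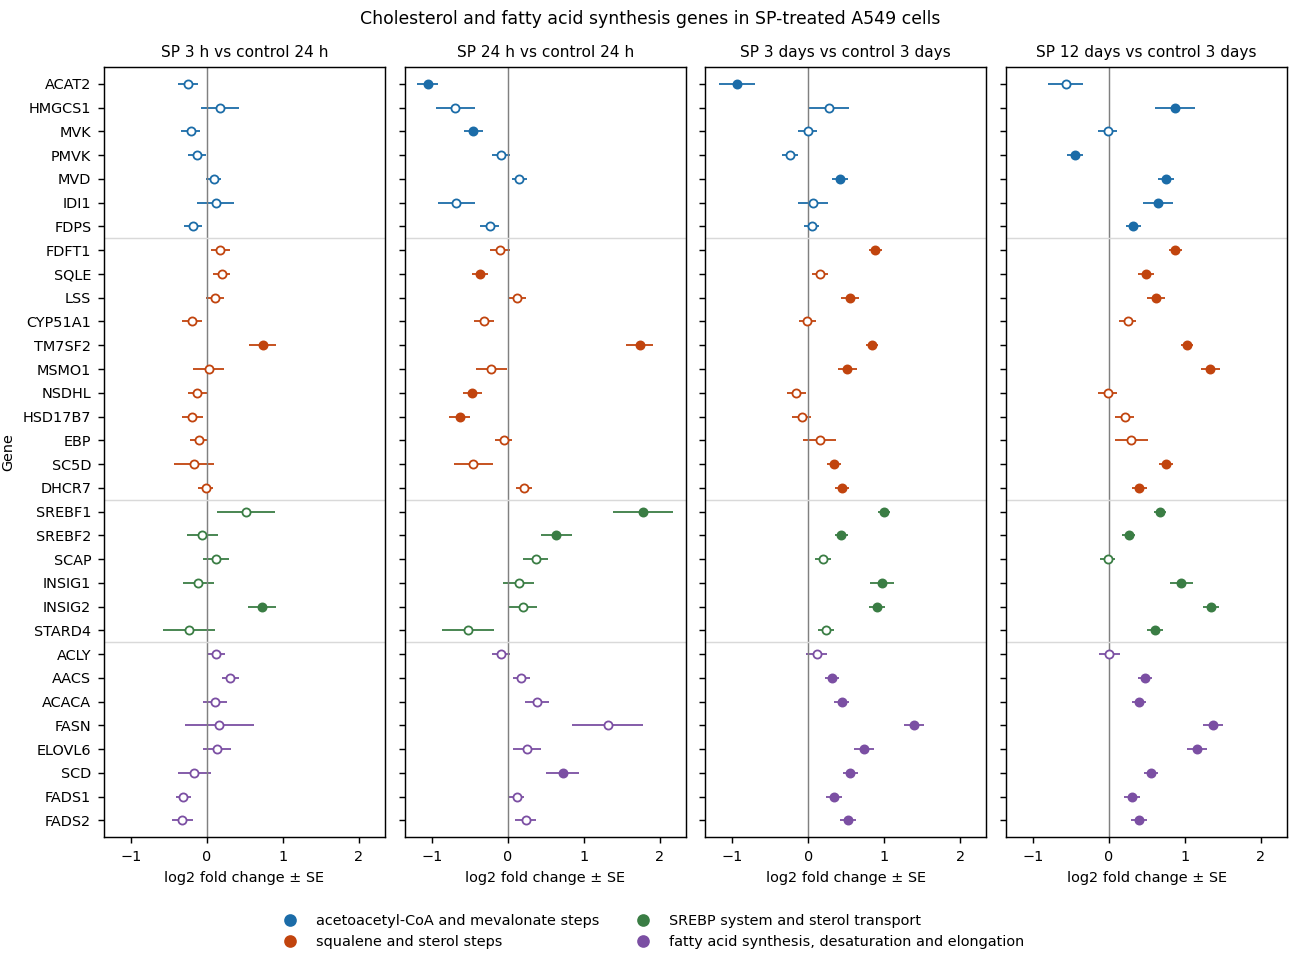
Log2 fold change (horizontal axis) of each of the 32 members (vertical axis, grouped by role) in the 4 comparisons with a control; points are the fitted values, bars the SE, and filled points were called at an adjusted p under 0.05. Called members number 2 at 3 h, 9 at 24 h, 19 at 3 days and 24 at 12 days, and FASN lies at 1.39 and 1.37 in the last 2 panels.

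In fatty acid synthesis 7 of 8 genes rose at 3 days. FASN went from 553, 505 and 645 CPM in the 3-day controls to 1458, 1441 and 1556 CPM. The groups stood far apart (1.39 ± 0.13, adjusted p = 6.3e-07). SCD rose from 2710, 2732 and 2805 CPM to 3987, 3955 and 4168 CPM (0.55 ± 0.10, adjusted p = 0.000218), also without overlap. ELOVL6, which lengthens palmitate to stearate, rose by 0.73 ± 0.13, the desaturases FADS2 and FADS1 by 0.52 ± 0.11 and 0.34 ± 0.10, ACACA by 0.44 ± 0.09 and AACS, which activates acetoacetate for lipid synthesis, by 0.31 ± 0.09. ACLY, which supplies cytosolic acetyl-CoA from citrate, was not called (0.11 ± 0.14). The AACS call was lost without control replicate 2 or SP 3 days replicate 3 (adjusted p of 0.061 and 0.0622), and that of FADS1 with GC content and length offsets (0.0545).

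The SREBP system gave 4 higher of 6. SREBF1 went from 689, 686 and 772 CPM to 1367, 1466 and 1453 CPM, with tight replicates on both sides (1.00 ± 0.08, adjusted p = 1.22e-07). INSIG1 went from 89.7, 81.5 and 85.2 CPM to 177, 168 and 157 CPM and INSIG2 from 20.9, 21.1 and 16.7 CPM to 36.3, 40.0 and 33.7 CPM. Neither overlapped its control, at 0.97 ± 0.15 (adjusted p = 0.000272) and 0.90 ± 0.11 (adjusted p = 4.04e-06). SREBF2 rose from 253, 249 and 293 CPM to 337, 353 and 385 CPM (0.43 ± 0.09, adjusted p = 0.000662). SCAP (0.19 ± 0.10) and STARD4 (0.23 ± 0.11) were not called.

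Of the 11 squalene and sterol genes 6 rose and 0 fell. FDFT1, the squalene synthase, went from 194, 177 and 198 CPM to 343, 343 and 364 CPM, with a wide gap between the groups (0.88 ± 0.09, adjusted p = 5.87e-07). TM7SF2 rose by 0.84 ± 0.08, LSS, which closes the sterol rings, by 0.55 ± 0.12, MSMO1, the sterol methyl oxidase, by 0.51 ± 0.12, DHCR7 of the last cholesterol step by 0.44 ± 0.09 and SC5D by 0.34 ± 0.09. SQLE, CYP51A1, NSDHL, HSD17B7 and EBP lay between -0.16 and 0.16 and were not called. Of the 7 mevalonate genes MVD, the decarboxylase, rose (0.42 ± 0.11, adjusted p = 0.00406) and lost its call with GC content and length offsets (0.05). HMGCS1 was at 107, 98.6 and 97.5 CPM in the controls and 123, 120 and 123 CPM after SP. Its treated libraries lay just above the controls, but 0.27 ± 0.26 was not called (adjusted p = 0.435). This fit shares its estimate of spread with SP at 12 days, and without SP 12 days replicate 3 the HMGCS1 difference of 0.26 was called (adjusted p = 0.00143). ACAT2 fell from 48.1, 45.5 and 53.5 CPM to 24.8, 25.8 and 26.1 CPM, without overlap (-0.94 ± 0.23, adjusted p = 0.00921).

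**Figure D3:**
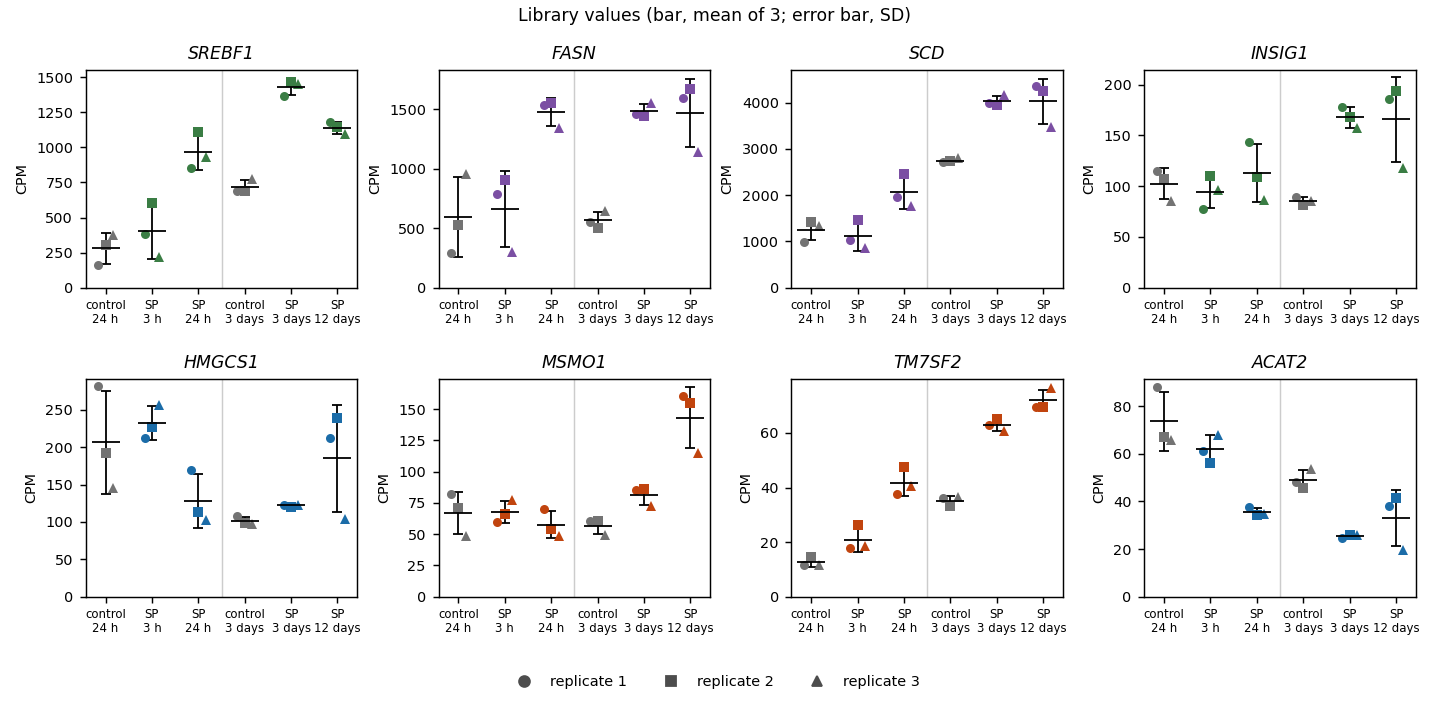
CPM (vertical axes, linear from 0) of 8 members in every library of the 6 groups; symbols mark the replicate, grey symbols controls, the horizontal bar the mean and the error bar the SD of 3 libraries. FASN rises from 505 to 645 CPM in the 3-day controls to 1441 to 1556 CPM at 3 days, and HMGCS1 of SP 12 days replicate 3, at 104 CPM, lies with the controls.

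After 12 days of SP, MSMO1 was 2.52-fold higher, INSIG2 2.54-fold, FASN 2.59-fold, ELOVL6 2.22-fold and TM7SF2 2.04-fold, and HMGCS1, IDI1, FDPS and SQLE were also called higher. Of the 32 members 23 rose (71.9%, where 26.4% of all tested genes were called higher) and 1 fell (3.12%, where 23.4% were called lower), and without SP 12 days replicate 3 the counts were 27 and 2, against 27.3% and 27.6% of all tested genes. The median log2 fold change was 0.48 over the members and -0.00 over all tested genes. The stricter rule was passed upwards by 5 members, those named first above, and by 6.88% of all tested genes, and downwards by 0 members and 2.23% of all tested genes, with 0 by DESeq2 and 2 members lower at an unadjusted p under 0.05.

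Of 11 sterol genes 7 rose. MSMO1 went from 60.5, 60.5 and 49.5 CPM in the 3-day controls to 160, 155 and 115 CPM. All treated libraries lay above the controls, with replicate 3 the lowest (1.33 ± 0.12, adjusted p = 5.87e-07). TM7SF2 rose from 36.0, 33.2 and 36.4 CPM to 69.7, 69.7 and 76.4 CPM, and here replicate 3 was the highest (1.03 ± 0.08, adjusted p = 4.84e-08). FDFT1 rose by 0.88 ± 0.09, SC5D by 0.75 ± 0.09, LSS by 0.62 ± 0.12, SQLE by 0.48 ± 0.10 and DHCR7 by 0.40 ± 0.09. CYP51A1 (0.25 ± 0.11), EBP (0.29 ± 0.21), HSD17B7 (0.20 ± 0.12) and NSDHL (-0.02 ± 0.13) were not called with all libraries, and the first 3 of these were called without SP 12 days replicate 3.

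In the mevalonate steps 4 of 7 rose. HMGCS1 read 212, 239 and 104 CPM after 12 days, so that replicates 1 and 2 lay above and replicate 3 among the controls. The change was 0.87 ± 0.26 (adjusted p = 0.025), and the call was lost on leaving out any library of either group but SP 12 days replicate 3 (adjusted p of 0.0578 to 0.0795). IDI1, at 103, 109 and 59.7 CPM against 60.0, 58.1 and 55.3 CPM in the controls, showed the same split (0.65 ± 0.20, adjusted p = 0.0204, lost for the same 5 libraries at 0.0503 to 0.078). MVD rose by 0.74 ± 0.11 and FDPS, the farnesyl diphosphate synthase, by 0.32 ± 0.10, a call lost without control replicate 2 or SP 12 days replicate 1 or 2 (adjusted p of 0.0759 to 0.0985). PMVK, the phosphomevalonate kinase, fell (-0.45 ± 0.11, adjusted p = 0.00268). ACAT2 was at 38.1, 41.6 and 19.7 CPM, below all controls, and -0.57 ± 0.23 was not called (adjusted p = 0.067), though it was when any SP 12 days library was left out. MVK was not called (-0.02 ± 0.12).

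In the SREBP system 5 of 6 rose at 12 days. INSIG2 reached 50.5, 47.6 and 51.4 CPM (1.35 ± 0.10, adjusted p = 4.35e-08) and INSIG1 186, 194 and 118 CPM (0.95 ± 0.15, adjusted p = 3e-04), replicate 3 being the lowest of the INSIG1 values yet above all controls. SREBF1 was at 1179, 1146 and 1095 CPM (0.67 ± 0.08, adjusted p = 7.24e-06) and SREBF2 at 312, 333 and 306 CPM (0.26 ± 0.09, adjusted p = 0.0208), both clear of the controls. The SREBF2 call was lost without control replicate 1 or 2 or SP 12 days replicate 1 or 2 (adjusted p of 0.0561 to 0.101). STARD4 rose by 0.60 ± 0.10, and SCAP was not called (-0.02 ± 0.10). In fatty acid synthesis 7 of 8 rose. FASN was at 1594, 1671 and 1141 CPM (1.37 ± 0.13, adjusted p = 6.56e-07) and ELOVL6 at 120, 128 and 81.5 CPM from 52.2, 49.1 and 46.4 CPM (1.15 ± 0.13, adjusted p = 6.15e-06). Replicate 3 was again the lowest in both and above every control. SCD, at 4363, 4253 and 3472 CPM, changed by 0.55 ± 0.10 (adjusted p = 0.000221). AACS rose by 0.48 ± 0.09, ACACA by 0.40 ± 0.09, FADS2 by 0.39 ± 0.11 and FADS1 by 0.30 ± 0.10, the last lost for the same 4 libraries (0.0642 to 0.137). ACLY stayed uncalled (0.00 ± 0.14).

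Counts in the lists around the pathway at the longer times stand beside the shares of all tested genes. At 3 days 25.2% of all tested genes were called higher and 23.3% lower, and at 12 days 26.4% and 23.4%. No list was tested against these shares. Further fatty acid and glycerolipid genes were higher for 14 of 24 at 3 days and 13 of 24 at 12 days, with FADS3 at 1.54 ± 0.08 and 1.33 ± 0.08, the phosphatidate phosphatase LPIN1 at 1.04 ± 0.11 and 1.38 ± 0.11, and SCD5 at 1.05 ± 0.11 and 0.80 ± 0.11. Those lower numbered 4 and 2, MID1IP1, a partner of acetyl-CoA carboxylase, being the furthest down (-0.78 ± 0.08 and -0.67 ± 0.08). In sterol uptake, storage and traffic 6 and 5 of 10 rose, with the lysosomal lipase LIPA at 0.84 ± 0.08 and 1.02 ± 0.08, and 1 and 4 fell, with VLDLR at -0.42 ± 0.09 and -0.80 ± 0.09. Of 7 LXR factors and efflux genes 3 rose and 2 fell at 3 days, and 1 rose and 2 fell at 12 days. ABCA1 was higher at both times (0.84 ± 0.08 and 1.15 ± 0.08), whereas the LXR genes NR1H2 (-0.57 ± 0.08 and -0.53 ± 0.08) and NR1H3 (-0.46 ± 0.11 and -0.91 ± 0.11) were lower. The SREBP processing and degradation machinery had 3 of 8 genes lower at each time, TMEM97 (-0.55 and -0.75), FAF2 (-0.54 and -0.53) and MBTPS2, the protease that makes the final cut of SREBP proteins (-0.43 ± 0.08 and -0.38 ± 0.08). Of the same 8 genes 0 were higher at 3 days and 1 at 12 days, SPRING1 (0.30). In the isoprenoid branch 0 of 7 rose at either time, and DHDDS fell at 3 days (-0.32 ± 0.10) and, with FNTB, at 12 days (-0.49 ± 0.10 and -0.62 ± 0.11).

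The SP groups of a table could also be compared with each other. Between 3 h and 24 h of SP, 6 members were higher at 24 h (18.75%, with 11.7% of all tested genes) and 4 lower (12.5%, with 8.40%). Higher were SREBF1 (1.27 ± 0.39, adjusted p = 0.0482), TM7SF2 (1.00 ± 0.18), SCD (0.89 ± 0.22), SREBF2 (0.70 ± 0.21), FADS2 (0.56 ± 0.14) and FADS1 (0.43 ± 0.10), and lower were HMGCS1 (-0.86 ± 0.25), ACAT2 (-0.80 ± 0.14), IDI1 (-0.80 ± 0.24) and SQLE (-0.56 ± 0.11). For each of these 10 the 3 libraries of 24 h lay wholly to one side of the 3 of 3 h. With the replicate block SREBF1 (adjusted p = 0.0526) and SREBF2 (0.0557) were not called. Same-numbered libraries of SP at 3 h and 24 h correlated at 0.03, 0.38 and -0.28, so that block does not rest on a clear pairing. Only ACAT2, TM7SF2 and SQLE kept their call whichever library of the table was left out. The adjusted p reached 0.154 for IDI1, 0.147 for HMGCS1, 0.142 for SREBF1, 0.134 for SREBF2, 0.080 for FADS2, 0.078 for SCD and 0.0623 for FADS1. The differences of the 32 members correlated with GC content at a Pearson r of 0.65 and a Spearman rho of 0.68, as a description over genes that share these libraries. Between 3 and 12 days of SP, 4 members were higher at 12 days (12.5%, with 4.46% of all tested genes) and 1 lower (3.12%, with 3.65%). MSMO1 (0.82 ± 0.12, adjusted p = 0.00103), INSIG2 (0.44 ± 0.10), SC5D (0.41 ± 0.09) and STARD4 (0.37 ± 0.10) were higher and SREBF1 was lower (-0.33 ± 0.08, adjusted p = 0.0255). MSMO1 kept its call whichever library was left out, while the highest adjusted p was 0.206 for STARD4, 0.11 for INSIG2, 0.0936 for SREBF1 and 0.0857 for SC5D. FASN (-0.02 ± 0.13) and SCD (-0.00 ± 0.10) were not called, with approximate 95% intervals of -0.27 to 0.24 and -0.19 to 0.19. These intervals scale the SE by a normal quantile and so are too narrow for this small number of libraries.

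This comparison turned on a single library, the one that was lowest of its group for 29 of the 32 members. Leaving it out raises the 12-day level of those members by construction, so the calls below are a description. Without SP 12 days replicate 3, 16 members were higher and 2 lower at 12 days, where 13.6% and 14.5% of all tested genes were called in place of 4.46% and 3.65%. Among those then called were HMGCS1 (0.87, adjusted p = 2.53e-09), IDI1 (0.81, adjusted p = 1.22e-07), ACAT2 (0.63, adjusted p = 1.04e-05), ELOVL6 (0.58, adjusted p = 2.24e-06) and SQLE (0.46, adjusted p = 1.59e-05), the largest of the 13 newly called. Over the 32 members the difference between 12 and 3 days ran against GC content (Pearson r -0.69 and Spearman rho -0.70, a description over genes that share these libraries), and with GC content and length offsets SREBF1 (-0.19), SC5D (0.28) and STARD4 (0.19) were no longer called.

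**Figure D4:**
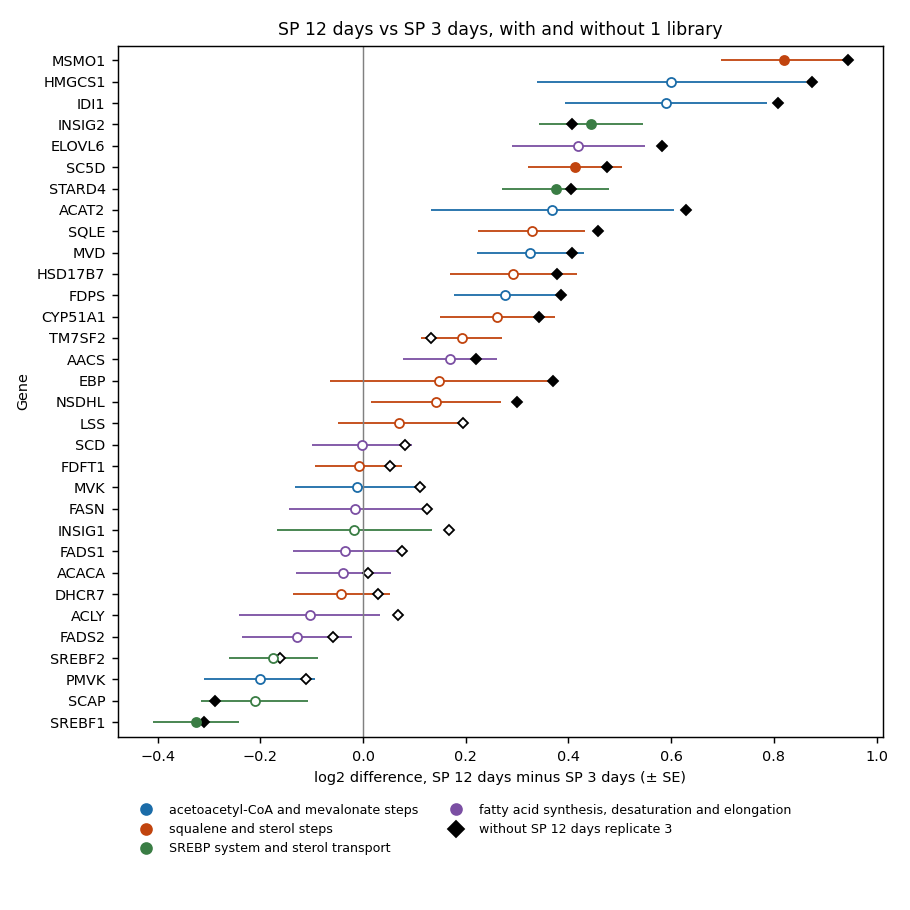
Log2 difference between SP at 12 days and SP at 3 days (horizontal axis) for each of the 32 members (vertical axis); circles with SE bars are from all libraries, diamonds from the fit without SP 12 days replicate 3, and filled symbols were called at an adjusted p under 0.05. HMGCS1 moves from 0.60, not called, to 0.87 when that library is left out, and SREBF1 is the lowest circle at -0.33.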

How the data were processed

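Total RNA of A549 cells was sequenced as paired reads. Per the labels and the study's methods, the authors checked reads with FastQC, aligned them with STAR 2.7.9a to GRCh38, counted them per Ensembl gene with featureCounts under R 4.2.1 and tested them with DESeq2 1.36.0. They deposited unnormalized read counts in 2 tables of 9 libraries, which were analysed separately here. Strand setting and treatment of multiply mapped reads are not given in the sources used here, so reads shared with overlapping genes (587 exon bases of ACAT2, 2497 of HMGCS1, 3090 of CYP51A1, and FADS1 with FADS2) or with copies such as the 8 pseudogenes named after FDPS leave those counts uncertain.

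Genes with low counts were removed (edgeR filterByExpr, minimum count 10) and libraries scaled by trimmed mean of M values. edgeR 4.0.16 in R 4.3.3 fitted all 9 libraries of a table by robust quasi-likelihood, with Benjamini-Hochberg adjustment over all tested genes, after it was tested on simulated data. CPM and RPKM were computed from the scaled totals and GENCODE exon lengths. Exact symbols were taken from GENCODE v44. Of the SREBP processing and degradation machinery 2 genes are not reported here. The members, lists and motifs were chosen with earlier results of these data known. Library values were given for up to 6 called members with the largest change in each comparison with a control and for SREBF1, SREBF2, INSIG1, HMGCS1, FASN and SCD in any case, and up to 4 genes per other list. Alternatives were DESeq2 1.42.0, other scaling, no filter, no robust estimation, an adjusted p under 0.01, replicate block, GC content and length offsets, 2 groups only and each library left out. Replicate numbers were checked by correlating deviations from group means. Those of the 24 h control and SP at 24 h were 0.50, 0.17 and 0.50 for the same numbers and -0.55 to 0.17 for different numbers. Control replicate 1 and SP 3 h replicate 3 gave 0.58. A pairing by number was not clear, and blocked values are given at 24 h as an alternative. The block spans all 9 libraries of a table unless 2 groups only are named. The study describes its RNA-seq of 3 h and 24 h as done in biological replicates. The labels do not say whether the replicates of any group came from separate cultures. The p-values therefore measure the spread between these libraries, which at 3 days and 12 days may be technical. Libraries of a group differed by more than counting noise in every pair, the closest having a chi-square per degree of freedom of 2.03.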

Additional observations from a re-analysis of the deposited data

Results flagged for a closer look

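These differences between 2 times of SP were flagged because the direct test of SP at one time against SP at another, by edgeR's quasi-likelihood test, was called. At 24 h against 3 h the log2 difference was 1.27 for SREBF1, 1.00 for TM7SF2, 0.89 for SCD, 0.70 for SREBF2, 0.56 for FADS2 and 0.43 for FADS1, and it was -0.86 for HMGCS1, -0.80 for ACAT2, -0.80 for IDI1 and -0.56 for SQLE. At 12 days against 3 days it was 0.82 for MSMO1, 0.44 for INSIG2, 0.41 for SC5D, 0.37 for STARD4 and -0.33 for SREBF1. Single outlying values of a gene within a group of 3 libraries were not searched for. Only each library's place as lowest or highest of its group was counted over the members.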

How the results depend on the processing

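Over 3840 values of single members under the alternatives, 3550 kept their direction and their side of the threshold, 161 lost a call, 127 gained a call and 2 reversed. Both reversals were MVD at 24 h, which went from 0.15, not called, to -0.40 (adjusted p = 0.0479) with the replicate block and GC content and length offsets, and to -0.41 (adjusted p = 0.00433) in the same fit of 2 groups only. For the counts of members below, the cause of a shift was not tested unless fewer libraries or a stricter limit made it.

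At 3 h, against 2 higher and 0 lower, there were 0 higher at an adjusted p under 0.01, 1 lower by DESeq2 and 1 higher with the replicate block. With GC content and length offsets 2 were lower, and also with the block added. With 2 groups only 0 were higher, also with the block added, and 1 with both block and offsets. Of all tested genes DESeq2 called 6.49% lower, the block 6.95% higher, the offsets 6.20% lower and block with offsets 7.38% lower. The 2 groups alone gave 3.86% higher, and 4.09% with block and offsets. With the block alone they gave 0 of 16151 genes in either direction, so 0 members followed from that fit. At 24 h, against 4 higher and 5 lower, there were 2 and 2 at an adjusted p under 0.01. With no filter there were 2 and 3, and with GC content and length offsets 3 were lower. There were 7 higher with the block and offsets, and 7 and 8 with 2 groups only, block and offsets. Of all tested genes, no filter called 8.48% higher and 4.75% lower, beside 16.8% and 12.0% in the main fit. Block and offsets called 20.1% higher, and that fit of 2 groups 23.5% higher and 20.7% lower. The offsets alone called 2605 of 17377 genes lower, beside 2087 in the main fit, while fewer members were lower. At the stricter rule, against 0, DESeq2 gave 2 higher and 1 lower, no filter 1 and 1, and 2 groups only gave 1 higher with the block and 2 higher with block and offsets.

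At 3 days, members lower numbered 2 in place of 1 with library totals only, with block and offsets, with 2 groups only and with 2 groups and block. They numbered 3 with 2 groups, block and offsets. Those fits called 25.4%, 24.8%, 29.0%, 31.6% and 32.7% of all tested genes lower, in that order, beside 23.3% in the main fit. Members passing the stricter rule upwards numbered 2 in place of 1 by DESeq2, relative log expression factors, no filter, and 2 groups with block and offsets. At 12 days, 2 in place of 1 were lower by DESeq2, library totals only, no filter, no robust estimation, and 2 groups with block. Those fits called 21.9%, 25.6%, 9.93%, 23.6% and 22.0% of all tested genes lower, in that order, beside 23.4% in the main fit. Members passing the stricter rule fell from 5 to 3 with block and offsets and to 2 in that fit of 2 groups.

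For 24 h against 3 h of SP, against 6 and 4, there were 1 higher and 2 lower at an adjusted p under 0.01. There were 2 lower with no filter and 7 lower with 2 groups only, which called 3.29% and 11.8% of all tested genes lower. By DESeq2 and with no filter 1 member passed the stricter rule upwards. For 12 days against 3 days, against 4 and 1, there were 1 and 0 at an adjusted p under 0.01 and 9 higher with no filter. There were 0 lower with offsets, with block and offsets and with 2 groups and block, and 1 higher and 0 lower with 2 groups, block and offsets. Of all tested genes no filter called 2.91% higher. The offsets called 3.94% lower, block and offsets 3.91% and 2 groups with block 2.09%. With 2 groups, block and offsets 2.17% were higher and 1.46% lower.

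When single libraries were omitted, the counts ranged over 0 to 2 higher at 3 h, 2 to 7 higher and 2 to 9 lower at 24 h, 17 to 21 higher and 1 to 2 lower at 3 days, 18 to 27 higher and 1 to 2 lower at 12 days, 1 to 6 higher and 2 to 6 lower between 3 h and 24 h, and 1 to 16 higher and 0 to 2 lower between 3 and 12 days. Members passing the stricter rule upwards ranged from 1 to 2 at 3 days and from 3 to 6 at 12 days. At 24 h the highest counts, 7 and 9, came without control replicate 3, where 19.7% and 17.3% of all tested genes were called. At 12 days the highest, 27, and between 3 and 12 days the highest, 16, came without SP 12 days replicate 3. That library was the lowest of its group for 29 of the 32 members. Alternatives with 2 groups only and a block were chosen after seeing the data. In the 3-day and 12-day table and between the 24 h control and SP at 3 h the replicate numbers did not pair the libraries (correlations of -0.01 to 0.16 and of -0.59 to -0.03 for the same numbers). With 14187401 to 43765330 reads a library, the spread between libraries rather than counting limited most members.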
